A study of Mus musculus with 6 samples.

Results

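The general adipogenic transcription factors described here are 10 genes, Pparg, Ppara, Ppard, Rxra, Cebpa, Cebpb, Cebpd, Klf15, Zbtb16 and Stat5a, chosen by name and found by matching Ensembl gene identifiers to mouse symbols. All 10 were among the 37620 identifiers counted in every library, and all 10 were among the 12068 genes that passed the filter on low counts. RNA came from mature brown adipocytes, which burn fat to make heat and were separated by flotation from collagenase-treated brown fat, of mice on a C57BL/6 background aged 6 weeks. There were 3 libraries from mice labelled PHOSPHO1 knockout (KO) and 3 from mice labelled wild type (WT), and each library pooled 3 mice. Phospho1 encodes a phosphatase of phosphocholine and phosphoethanolamine. The labels do not say how the knockout allele was made or whether it was limited to a cell type, and no treatment is given for either group. The contrast of KO with WT brown adipocytes is read here for the factors that drive and maintain the fat cell state.

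In the textbook account of adipogenesis, Cebpb and Cebpd are switched on early by hormonal signals such as glucocorticoid and cyclic AMP, and they raise Cebpa and Pparg, which then sustain each other's expression and that of the genes of the mature fat cell. Pparg encodes the nuclear receptor PPAR-gamma, which binds DNA as a pair with the retinoid X receptor encoded by Rxra. The related receptors PPAR-alpha and PPAR-delta, encoded by Ppara and Ppard, use the same partner and control genes of fatty acid oxidation, and PPAR-alpha is more abundant in brown than in white fat. Klf15 is a zinc-finger factor that acts on Pparg and on glucose and amino acid metabolism, Zbtb16 is a glucocorticoid-inducible zinc-finger repressor linked in mice to the thermogenic programme of brown fat, and Stat5a carries growth hormone and prolactin signals to the nucleus.

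Pparg has several transcription starts, and the counts here are summed over all of them. Promoters from RefSeq (build GRCm38.p6, plus strand for those shown) run from 250 bases before a start to 50 bases after it, and 8 of the 10 factors matched an entry, with 12 promoters in all; Cebpd and Zbtb16 did not. The 2 outer Pparg promoters are shown because they differ most in composition, and that of Cebpb because its levels separated the groups without passing the test. Capitals mark matches on either strand to TTGCNNAA, a pattern of C/EBP binding sites, to TATAAA, the letters of a TATA box, and to CCAAT. No marked matches overlap each other.
Pparg, most upstream start, chr6:115360894-115361193: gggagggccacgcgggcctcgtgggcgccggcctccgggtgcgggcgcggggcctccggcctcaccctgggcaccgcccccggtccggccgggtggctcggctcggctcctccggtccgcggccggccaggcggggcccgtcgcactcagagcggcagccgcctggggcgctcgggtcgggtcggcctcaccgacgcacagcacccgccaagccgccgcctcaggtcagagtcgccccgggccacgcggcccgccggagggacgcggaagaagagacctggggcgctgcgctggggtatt
Pparg, most downstream start, chr6:115421816-115422115: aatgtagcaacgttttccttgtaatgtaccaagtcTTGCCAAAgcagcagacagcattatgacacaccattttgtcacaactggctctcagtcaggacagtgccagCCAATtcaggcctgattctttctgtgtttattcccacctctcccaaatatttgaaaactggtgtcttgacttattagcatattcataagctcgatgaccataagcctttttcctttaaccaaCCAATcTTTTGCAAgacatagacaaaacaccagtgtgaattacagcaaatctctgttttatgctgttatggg
Cebpb, chr2:167688665-167688964: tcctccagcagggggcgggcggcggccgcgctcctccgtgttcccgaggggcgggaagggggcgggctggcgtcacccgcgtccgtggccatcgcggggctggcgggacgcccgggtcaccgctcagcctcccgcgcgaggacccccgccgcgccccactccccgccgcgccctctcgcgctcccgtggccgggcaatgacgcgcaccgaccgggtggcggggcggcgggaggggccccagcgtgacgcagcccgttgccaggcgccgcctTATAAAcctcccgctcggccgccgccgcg
The most downstream Pparg start gives the form of the receptor that is largely restricted to fat cells, and its promoter had a GC content of 40.3%, against 80.3% at the most upstream start and 80.7% at Cebpb. It held TTGCNNAA at positions -215 and -16 from the start and was the only 1 of the 12 promoters with that pattern, which occurred in 10.8% of the 32851 RefSeq promoters. TATAAA occurred in 3 of the 12 promoters, against 13.6% of all promoters: at -29 in the middle promoter of Pparg and at -30 in that of Cebpa, both before the start, and at 22 after the start in that of Cebpb. CCAAT occurred in 4 promoters, against 37.4%. The core letters of PPAR sites, AGGTCA, were found in 5 promoters, of Pparg, Rxra and Stat5a (16.3% of all promoters), and both AGGTCA repeated with 1 base between the copies and the STAT pattern TTCNNNGAA in 0 (0.0396% and 8.30% of all promoters). Promoters of 1 gene are not independent, and a match is only a string of letters in this window.

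Library totals ranged from 10576800 to 14239307 counts, and genes of the mitochondrial genome took 39.1% to 56.5% of them. The counts of Phospho1 itself were 18, 15 and 17 in the libraries labelled KO, against 13, 5 and 5 in the libraries labelled WT. In the GRCm38 annotation 89.6% of its exonic bases also lie in exons of Zfp652, so the labels are only weakly checked by these counts, and directions are given for the libraries as labelled. Over all genes, 9.16% of the 12068 tested passed an adjusted p of 0.05 (edgeR quasi-likelihood test with Benjamini-Hochberg adjustment over all tested genes), 1.63% higher and 7.52% lower. Levels in the KO libraries tended to be lower the longer the transcript: the slope of each library's log2 levels on log2 transcript length, relative to the mean of the 6 libraries, was -0.238, -0.0932 and -0.249 in KO 1, 2 and 3, against 0.306, -0.0255 and 0.2996 in WT 1, 2 and 3. The fold changes of the factors and of the list genes named are therefore also given from a fit whose offsets follow transcript length and GC content, in which 0.00829% of genes (1 gene) passed. No call in this comparison outlasted every left-out library: 0 genes passed in edgeR without WT 1, where 2251 had an unadjusted p under 0.05, and 2 passed without KO 3. General fat cell markers such as Fabp4 and Adipoq summed to between 22748 and 32383 CPM (counts scaled to library size) in the KO libraries and between 24153 and 31936 CPM in the WT libraries. Of 13 brown fat cell markers 1 rose, 3 fell and 9 did not pass, with a median log2 fold change of -0.03. Their sum was between 8096 and 9808 CPM in KO and between 4764 and 7376 CPM in WT. Much of it was Ucp1, with 3817 to 4873 CPM in KO and 2285 to 3288 CPM in WT. The log2 fold change of Ucp1 was 0.66 (edgeR adjusted p = 0.113), and 0.40 (adjusted p = 0.197) with the offsets. White fat cell markers summed to between 152 and 281 CPM in KO and between 327 and 468 CPM in WT, and 2 of 6 tested fell. Stromal markers summed to between 1213 and 1592 CPM in KO and between 974 and 1135 CPM in WT, and 2 of 12 rose. Erythroid markers summed to between 1210 and 3506 CPM in KO and between 366 and 1378 CPM in WT, and 2 of 5 tested rose. Skeletal muscle markers summed to at most 115.5 CPM in 5 libraries and to 1216 CPM in WT 3. The part of these markers' cell types in the results was not tested.

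Of the 10 factors, Zbtb16 fell in the KO libraries and the other 9 did not pass the test. Pparg and Cebpa, the factors that hold the fat cell state, were the most abundant in both groups, and their KO means were 0.903 and 1.07 times their WT means. Cebpb was higher in all 3 KO libraries than in any WT library, but its adjusted p of 0.065 (edgeR) missed the threshold. The 1 call among 10 stands beside the 9.16% of all tested genes that were called. The groups did not overlap for 2 of the 10, Zbtb16 and Cebpb, against 35.4% of all tested genes, 15.8% higher and 19.6% lower in KO. An unadjusted p under 0.05 was found for 2 of the 10 and for 30.8% of all tested genes, and with the offsets for 3 of the 10 and 23.1%. The median log2 fold change was -0.20 for the 10 factors and 0.03 for all tested genes, and with the offsets -0.34 and 0.03. In bulk RNA of this kind, fewer cells of a type and less of a transcript per cell cannot be told apart.

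**Figure D1:**
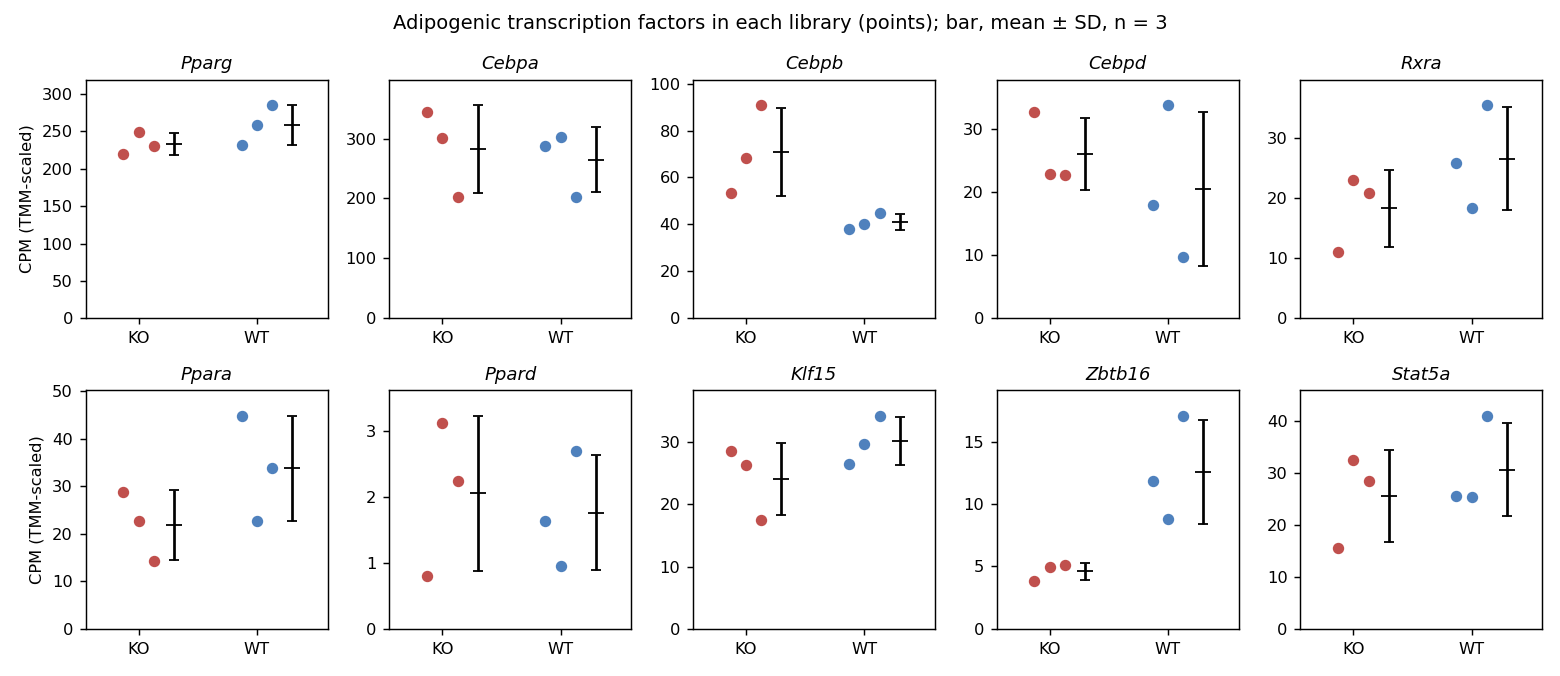
Levels of the 10 factors in CPM on TMM-scaled library sizes, with 1 point per library, KO (red) left of WT (blue), and the mean ± SD of 3 libraries as a black bar; each panel has its own axis from 0. Zbtb16 lies at 3.80 to 5.11 CPM in KO and 8.80 to 17.1 CPM in WT, and Cebpb at 53.2 to 90.8 CPM in KO and 38.1 to 44.9 CPM in WT, while the points of the other 8 factors overlap between the groups.

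Ranked by level per length (CPM per kilobase of the longest annotated transcript), Pparg came first in both groups and Ppard last. Pparg had 110 ± 7.1 CPM per kilobase in KO and 122 ± 12.5 in WT, and Cebpa had 108 ± 27.8 in KO and 100.7 ± 20.6 in WT (SD, n = 3 each). The libraries of these 2 genes overlapped in each group, so their order was not resolved. Cebpb followed with 47.1 ± 12.5 CPM per kilobase in KO and 27.3 ± 2.3 in WT, below every library of Cebpa and above every library of Klf15 in each group. Klf15, Ppara, Stat5a, Cebpd and Rxra formed a middle group between 3.71 and 9.72 in KO and between 5.41 and 12.1 in WT, and each overlapped its neighbour in the order of its group. Zbtb16 stood below them at 0.901 ± 0.138 in KO and 2.46 ± 0.82 in WT, and Ppard had 0.551 ± 0.315 in KO and 0.473 ± 0.235 in WT; these last 2 overlapped in KO and did not in WT. Over all 6 libraries, the mean level per length of Pparg and Cebpa was above 97.0% and 96.6% of tested genes, that of Cebpb above 90.6%, Zbtb16 above 33.7% and Ppard above 11.2%.

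Pparg, the central regulator of fat cell identity, varied least of the 10 factors between KO libraries, and in WT less than all but Cebpb. It had 220, 250 and 230 CPM in KO 1, 2 and 3, against 232, 259 and 285 CPM in WT 1, 2 and 3. The groups overlapped, and the highest library was 1.14 times the lowest in KO and 1.23 times in WT, where the median gene had 1.59 and 1.56 times. Its fold change on the log2 scale was -0.15 (SE 0.21, edgeR adjusted p = 0.653), with a 95% interval from -0.62 to 0.32, and -0.42 (SE 0.18, adjusted p = 0.213) with the offsets.

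Ppara, the subtype that switches on fatty acid oxidation, had 28.8, 22.6 and 14.2 CPM in the KO libraries, against 44.8, 22.8 and 33.7 CPM in the WT libraries. KO 3 was lowest and WT 1 highest, and KO 1 lay above WT 2. The log2 fold change was -0.62 (SE 0.32, edgeR adjusted p = 0.203) with a 95% interval from -1.32 to 0.07, which spans 0.400 to 1.05 times the WT level, and it was -0.61 (SE 0.31, adjusted p = 0.271) with the offsets. Ppard, the widely expressed subtype, held only 9, 38 and 22 counts in the KO libraries, against 29, 14 and 30 counts in the WT libraries. At this depth its groups could not be told apart: the log2 fold change was 0.24 (SE 0.52, adjusted p = 0.764; 0.28 with the offsets), with an interval from -0.88 to 1.37 that spans 0.542 to 2.59 times the WT level, and its sign turned with total counts as the scaling, without KO 2 and without WT 2.

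Pparg made up most of the PPAR transcripts in every library. Its share of the summed level per length of the 3 subtypes was 92.3%, 94.0% and 95.8% in KO 1, 2 and 3, against 88.9%, 94.6% and 92.7% in WT 1, 2 and 3. Ppara took 5.51 ± 1.94% in KO and 7.58 ± 2.83% in WT, and Ppard 0.464 ± 0.247% in KO and 0.352 ± 0.150% in WT (SD, n = 3 each). The ratio of Ppara to Pparg within a library was 0.0588 ± 0.0217 in KO and 0.0830 ± 0.0337 in WT, a log2 difference of -0.49 (exact two-sided permutation p = 0.5, adjusted p = 0.75 over 3 ratios), and 3 against 3 libraries cannot give a p below 0.1. These shares take the longest annotated transcript of each gene as its length.

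**Figure D2:**
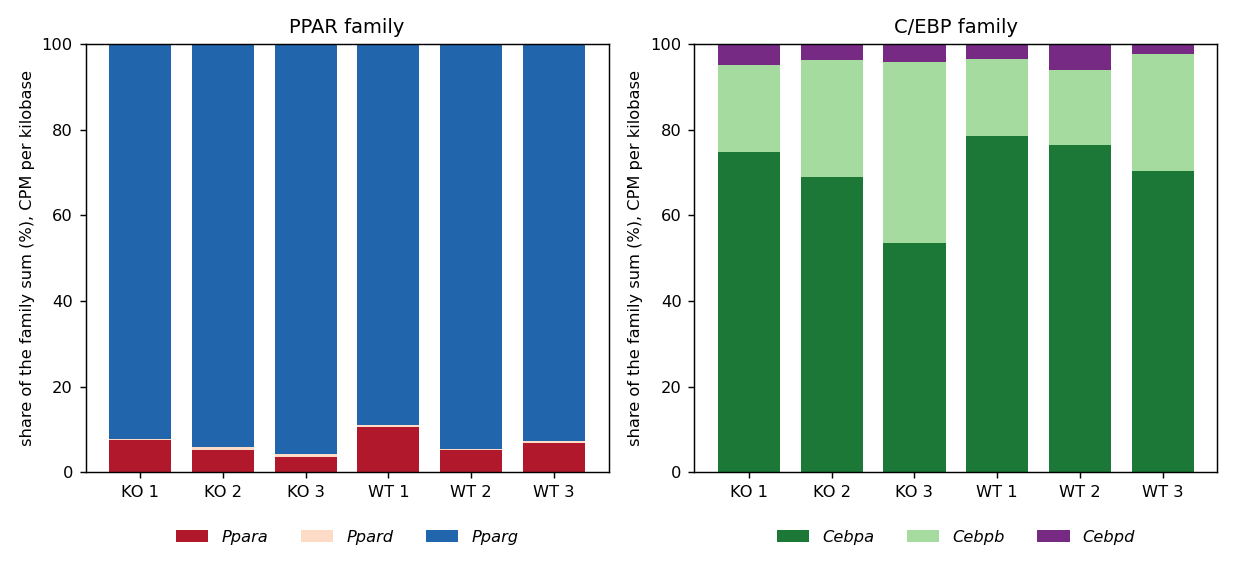
Share of each subtype in the summed level per length (CPM per kilobase) of the PPAR family (left) and the C/EBP family (right), in percent, with 1 stacked bar per library and KO libraries left of WT libraries. Pparg fills 88.9% to 95.8% of the PPAR bars, and the Cebpb part of the C/EBP bars is widest in KO 3, at 42.1%.

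Rxra, the DNA-binding partner of all 3 PPARs, had 10.97, 23.0 and 20.7 CPM in KO 1, 2 and 3, against 25.8, 18.4 and 35.4 CPM in WT 1, 2 and 3. KO 1 was the lowest library and WT 3 the highest, and KO 2 and KO 3 lay above WT 2. For Rxra the log2 fold change stood at -0.54 (SE 0.33, edgeR adjusted p = 0.276; -0.39 with the offsets, adjusted p = 0.380). Rxra was not the main retinoid X receptor transcript in these cells: it took 13.9 ± 6.0% of the summed level per length of the 3 RXR genes in KO and 21.8 ± 8.4% in WT. Rxrg took 49.5 ± 3.3% in KO and 48.7 ± 5.6% in WT, and Rxrb 36.6 ± 4.2% in KO and 29.5 ± 8.3% in WT.

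Cebpa, the late factor that sustains Pparg, had 345, 301 and 202 CPM in the KO libraries, against 288, 303 and 202 CPM in the WT libraries. In each group replicate 3 was the lowest. The groups overlapped, with KO 1 above every WT library, KO 2 within their range and KO 3 (201.9 CPM) just below WT 3 (202.5 CPM). The log2 fold change was 0.10 (SE 0.27, edgeR adjusted p = 0.823), with an interval from -0.48 to 0.67, and -0.24 (SE 0.22, adjusted p = 0.552) with the offsets. Its direction turned with the offsets and with total counts as the scaling.

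Cebpb, the early factor, had 53.2, 68.5 and 90.8 CPM in the KO libraries, against 38.1, 40.1 and 44.9 CPM in the WT libraries. All 3 KO libraries lay above all 3 WT libraries, and the KO libraries were spread more widely (1.70 times from lowest to highest, against 1.18 times in WT). The log2 fold change was 0.79 (SE 0.25, interval 0.25 to 1.33), with an adjusted p of 0.065 in edgeR, 0.073 in limma-voom and 0.036 in DESeq2, in which 3.94% of genes were called higher. Without KO 1 it passed in edgeR as well (0.96, adjusted p = 0.031). Cebpb has the shortest transcript of the 10 factors, 1504 bases, and the highest GC content, 67.2%, and with the offsets its log2 fold change was 0.22 (SE 0.34, adjusted p = 0.732). In GRCm38, 20.7% of its exonic bases lie in exons of Tmem189 on the opposite strand, which had 17.6 to 20.6 CPM in the KO libraries and 13.2 to 16.5 CPM in the WT libraries. Tmem189 was thus also higher in every KO library than in any WT library (log2 fold change 0.44, edgeR adjusted p = 0.225; 0.09 with the offsets). Without a stated strand setting the reads of the 2 genes cannot be told apart there. Macrophages also express Cebpb, and 12 macrophage markers, 0 of them at 0 counts in all libraries, summed to between 257 and 537 CPM in the KO libraries and between 130 and 247 CPM in the WT libraries. Of these markers Lyz2 rose, Cd163 fell and 10 did not pass, with a median log2 fold change of 0.14 (-0.29 with the offsets). The part of these markers' cells in the Cebpb values was not tested.

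Cebpd, the other early factor, had 32.6, 22.9 and 22.7 CPM in the KO libraries, against 17.9, 33.7 and 9.69 CPM in the WT libraries. The WT libraries differed by 3.48 times among themselves and enclosed all 3 KO libraries. On the log2 scale the change was 0.35 (SE 0.38, edgeR adjusted p = 0.541) and 0.38 (SE 0.43, adjusted p = 0.634) with the offsets, and 562 of its 3746 exonic bases overlap Spidr on the opposite strand. Of the summed level per length of the 3 C/EBP genes, Cebpb took 20.2%, 27.4% and 42.1% in KO 1, 2 and 3, against 18.1%, 17.6% and 27.2% in WT 1, 2 and 3. Cebpa took 65.8 ± 10.9% in KO and 75.1 ± 4.2% in WT (SD, n = 3 each). The ratio of Cebpb to Cebpa was 0.270, 0.397 and 0.785 in KO, against 0.231, 0.231 and 0.387 in WT, a log2 difference of 0.68 (exact two-sided permutation p = 0.2, adjusted p = 0.6 over 3 ratios); KO 1 lay within the WT range and KO 2 just above it.

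Klf15, an activator of Pparg and of amino acid breakdown, had 28.6, 26.2 and 17.6 CPM in the KO libraries, against 26.4, 29.8 and 34.2 CPM in the WT libraries. KO 3 was lowest and WT 3 highest, with overlap between KO 1 and the WT libraries. The log2 fold change was -0.32 (SE 0.26, edgeR adjusted p = 0.402), and -0.61 (SE 0.24, adjusted p = 0.163) with the offsets. Skeletal muscle also expresses Klf15, and WT 3 is the library with the high muscle marker sum; without WT 3 the log2 fold change was -0.24 (edgeR adjusted p = 0.654), and the part of muscle RNA in this result was not tested.

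Zbtb16 had 3.80, 4.92 and 5.11 CPM in KO 1, 2 and 3, against 11.8, 8.80 and 17.1 CPM in WT 1, 2 and 3. In counts these were 43, 60 and 50 in KO and 210, 129 and 190 in WT, and every KO library lay below every WT library. The mean was 4.61 ± 0.71 CPM in KO and 12.6 ± 4.2 CPM in WT (SD, n = 3 each). On the log2 scale Zbtb16 fell by 1.44 (SE 0.31, edgeR adjusted p = 0.023, interval -2.13 to -0.76), and limma-voom (adjusted p = 0.030) and DESeq2 (adjusted p = 0.00142) called it too. Its transcript of 5114 bases is the longest of the 10 factors. With the offsets the log2 fold change was -1.18 (SE 0.24) and the adjusted p 0.062, and with the median transcript length it was -1.16 (adjusted p = 0.051). Left-out libraries moved the adjusted p over the threshold in 4 cases: 0.125 without WT 1, 0.073 without WT 3, 0.059 without KO 2 and 0.077 without KO 3. WT 3, the highest library, is also the one with the high muscle marker sum, and the part of that in the result was not tested. Without 1 library its log2 change lay between -1.64 and -1.19.

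**Figure D3:**
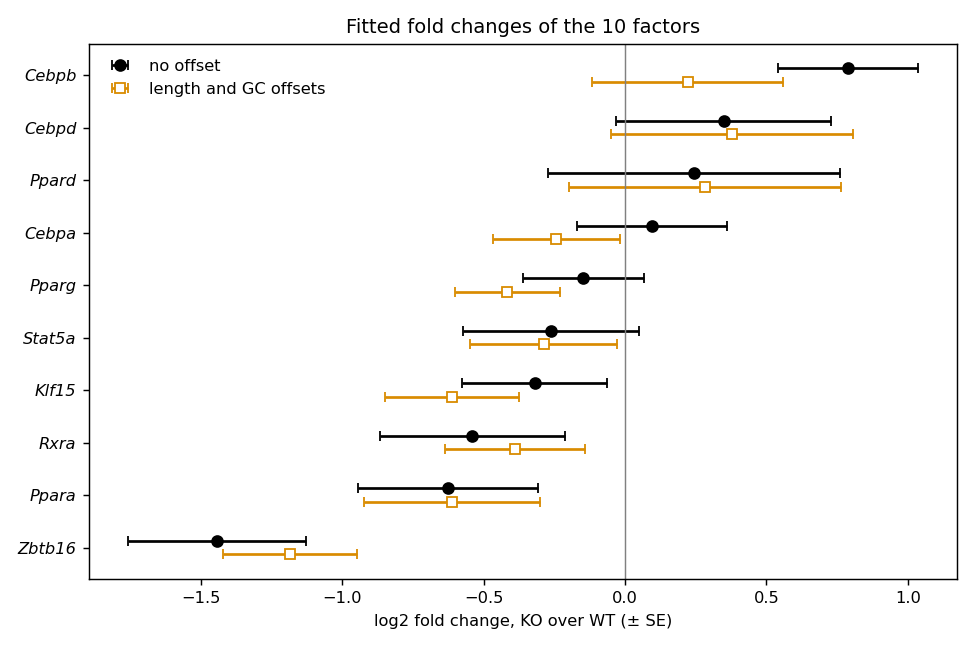
Log2 fold change of KO over WT with its standard error for each of the 10 factors, from edgeR without offsets (black circles) and with length and GC offsets (open orange squares). Zbtb16 stands at -1.44 and -1.18, and Cebpb moves to 0.22 with the offsets, against 0.79 without them.

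Stat5a, which carries growth hormone and prolactin signals, had 15.6, 32.5 and 28.5 CPM in the KO libraries, against 25.5, 25.4 and 40.9 CPM in the WT libraries. KO 1 was lowest and WT 3 highest, as for Rxra, and the groups overlapped. Its log2 change was -0.26 (SE 0.31, edgeR adjusted p = 0.580; -0.29 with the offsets, adjusted p = 0.544), and it was 0.003 without KO 1. Its neighbour and near copy Stat5b was at -0.34 on the log2 scale (SE 0.25, adjusted p = 0.357; -0.06 with the offsets). Stat5a held 69.0 ± 6.7% of the summed level per length of the 2 genes in KO and 68.5 ± 6.6% in WT, and the ratio of Stat5a to Stat5b was 2.32 ± 0.65 in KO and 2.27 ± 0.65 in WT (exact two-sided permutation p = 0.9). The 2 genes share long stretches of sequence, and how reads that match both were counted is not given in the sources used here, so the split between them is uncertain.

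Genes upstream and downstream of Stat5a moved in both directions. Of 17 tested genes of the growth hormone and STAT5 pathway, 2 rose, 3 fell and 12 did not pass. This is 29.4% called, against 9.16% of all tested genes. The list's median log2 fold change was -0.57, against 0.03 over all tested genes, and 0.01 with the offsets. Cish, a feedback inhibitor that STAT5 induces, had 83.1, 37.5 and 74.1 CPM in the KO libraries, against 22.5, 22.9 and 12.2 CPM in the WT libraries, and its log2 change was 1.75 (SE 0.34, edgeR adjusted p = 0.019; 1.94 with the offsets, adjusted p = 0.062). Bcl2l1, a survival gene that STAT5 can induce, was at 1.07 on the log2 scale (SE 0.24, adjusted p = 0.023; 0.77 with the offsets, adjusted p = 0.071). The growth hormone receptor gene Ghr fell to 250.9, 251.2 and 185 CPM in the KO libraries, against 462, 503 and 547 CPM in the WT libraries. Its log2 fold change was -1.14 (SE 0.23, adjusted p = 0.019; -0.54 with the offsets, adjusted p = 0.109). Lifr, the receptor for leukaemia inhibitory factor, was at -1.38 (adjusted p = 0.018; -0.48 with the offsets), and Igf1, the growth factor induced by growth hormone and named after its value was seen, at -1.11 (0.05 with the offsets). The groups did not overlap for 35.4% of all tested genes, and also not for Cish, Bcl2l1 and Ghr, which were named for their small p. Their edgeR adjusted p was 0.122, 0.133 and 0.122 without WT 1 and 0.075, 0.082 and 0.075 without KO 3, and that of Bcl2l1 was 0.067 without WT 3.

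Glucocorticoid-related genes did not share a direction. Nr3c1, the glucocorticoid receptor gene, had 49.4, 65.8 and 36.5 CPM in the KO libraries, against 164, 103 and 122 CPM in the WT libraries, and its log2 change was -1.36 (SE 0.28, edgeR adjusted p = 0.020). Its transcript of 6436 bases is long, and with the offsets it was at -0.53 (adjusted p = 0.150). Among 20 tested glucocorticoid-induced genes, 2 rose, 1 fell and 17 did not pass, with a median of 0.11 (-0.03 with the offsets); 4 of the 20, Zbtb16, Klf15, Cebpd and Cebpb, are among the 10 factors. The kinase Sgk1 had 242 ± 44.0 CPM in KO and 135 ± 13.9 CPM in WT (log2 fold change 0.84, SE 0.23, adjusted p = 0.045). The phosphatase Dusp1, which many stress signals also induce, had 328 ± 30.7 CPM in KO and 165 ± 32.6 CPM in WT (0.99, SE 0.23, adjusted p = 0.028). With the offsets Sgk1 and Dusp1 were at 0.87 and 0.68 (adjusted p = 0.064 and 0.077), and the gene that fell is Zbtb16 itself. Of the fits without 1 library, Sgk1 passed only in that without WT 2 (edgeR adjusted p = 0.037). Without WT 1 and without KO 3 the edgeR adjusted p was 0.126 and 0.079 for Nr3c1, and 0.164 and 0.080 for Dusp1.

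**Figure D4:**
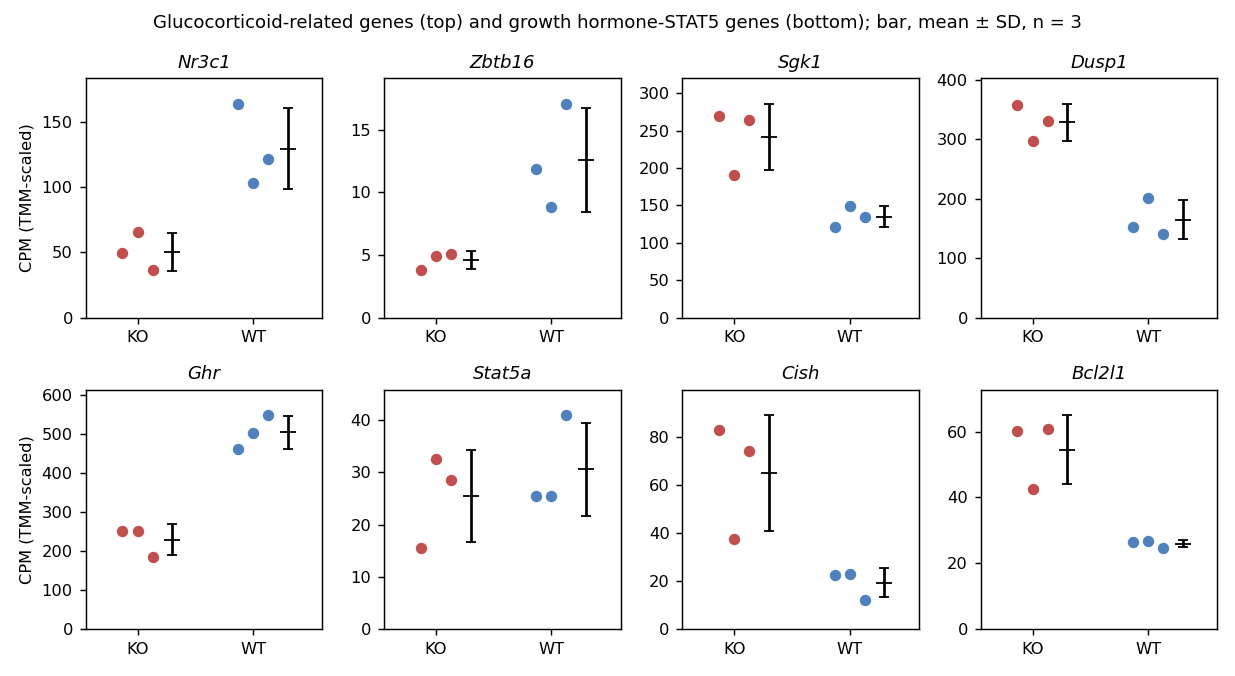
Levels in CPM on TMM-scaled library sizes of 4 glucocorticoid-related genes (top) and 4 growth hormone and STAT5 genes (bottom), with 1 point per library, KO (red) left of WT (blue), and the mean ± SD of 3 libraries as a black bar. Nr3c1, Zbtb16 and Ghr lie lower in every KO library than in any WT library, Sgk1, Dusp1, Cish and Bcl2l1 lie higher, and Stat5a overlaps. The groups did not overlap for 35.4% of all tested genes.

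Counts for related genes are read against all tested genes, of which 9.16% were called in edgeR and 30.8% had an unadjusted p under 0.05. In lists as short as these, 0 calls does not set a list apart from all tested genes. Of 10 other RXR, C/EBP and STAT genes, 0 passed in edgeR (2 had an unadjusted p under 0.05, and DESeq2 called 1), with a list median of -0.27 (-0.18 with the offsets); Cebpg was at -0.70 (adjusted p = 0.096; -0.13 with the offsets). Of 10 tested KLF genes other than Klf15, 0 passed in edgeR (4 had an unadjusted p under 0.05, and DESeq2 called 0). The list median was -0.50, or 0.02 with the offsets, and Klf2, an inhibitor of Pparg expression, was at 0.85 (adjusted p = 0.078) and 0.29 with the offsets. Of 15 anti-adipogenic factors 0 passed in edgeR (3 had an unadjusted p under 0.05, and DESeq2 called 0), with a list median of -0.19 (0.18 with the offsets). Irf3 was at 0.72 (0.29 with the offsets), and Sirt1, a deacetylase that restrains PPAR-gamma, at -1.08 (-0.64 with the offsets). Among 20 other transcription factors listed as pro-adipogenic 4 fell, 0 rose and 16 did not pass, with a list median of -0.43. Whether each of them, Rora included, promotes fat cell formation was not tested. Besides Nr3c1, those that fell were Rora (-1.90), an orphan nuclear receptor, Creb1 (-1.28), the cyclic AMP response factor that switches on Cebpb, and Ebf2 (-0.98), a brown fat determination factor. In the offset fit Rora, Creb1 and Ebf2 were at -0.77, -0.20 and -0.41 and the list median at 0.01. Of 16 coregulators of nuclear receptors 3 fell, the coactivators Ncoa2 (-1.36) and Ppargc1a (-1.07) and the corepressor Nrip1 (-1.20), and 13 did not pass; with the offsets the 3 genes were at -0.68, -0.17 and -0.33 and the list median at 0.28.

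Lists of genes known as targets of the factors are read against the same shares of all tested genes, 9.16% and 30.8%. Of 30 PPARG target genes, 2 fell (6.67%), 0 rose and 28 did not pass, with a list median of -0.03 (-0.15 with the offsets). Among those that fell was Scd1, the delta-9 fatty acid desaturase, at -1.62 (edgeR adjusted p = 0.022), and with the offsets it was at -1.18 (adjusted p = 0.064). The fatty acid activating enzyme Acsl1 was at -1.07 (adjusted p = 0.060; -0.45 with the offsets) and Acaca, the first enzyme of fatty acid synthesis, at -2.13 (SE 0.57, adjusted p = 0.053; -1.33 with the offsets). Of 23 tested PPARA and PPARD target genes of fatty acid oxidation 0 passed in edgeR (6 had an unadjusted p under 0.05, and DESeq2 called 0), with a list median of -0.29 (-0.34 with the offsets). Among the 4 with the smallest p, values lay between -0.95 for Cpt1a and 0.76 for Fabp3, which were at -0.74 and 0.13 with the offsets. Of 15 C/EBP target genes 4 fell (26.7%, above the share of all tested genes) and 11 did not pass. The list median was -0.61 (-0.42 with the offsets). Besides Scd1 and Ppargc1a, those that fell were the hormone gene Lep (-1.54) and the insulin receptor Insr (-1.64), at -1.49 and -0.84 with the offsets. Of 12 tested KLF15 target genes 0 passed in edgeR (3 had an unadjusted p under 0.05, and DESeq2 called 1), and Pck1, an enzyme of glyceroneogenesis that PPARG also induces, was at -0.86 (adjusted p = 0.084; -1.06 with the offsets). Summed levels of PPARG targets were 31468 to 41241 CPM in KO and 41492 to 48450 CPM in WT. For C/EBP targets they were 23587 to 30400 in KO and 30944 to 38045 in WT. For KLF15 targets they were 2067 to 3064 in KO and 3249 to 3802 in WT. These sums did not overlap between groups. Single tested genes did not overlap in 35.4% of cases, but that share is not a background for sums over lists. For PPARG targets the nearest sums were 41241 CPM in KO 1 and 41492 CPM in WT 1. The PPARA and PPARD target sums overlapped (9237 to 10138 in KO, 9272 to 10979 in WT). A sum weighs abundant genes most. Several genes stand in more than 1 list, so the counts and sums are not independent. In the fit with offsets from the longest transcript, without WT 1 and without KO 3, 0 genes of these lists passed in edgeR.

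**Figure D5:**
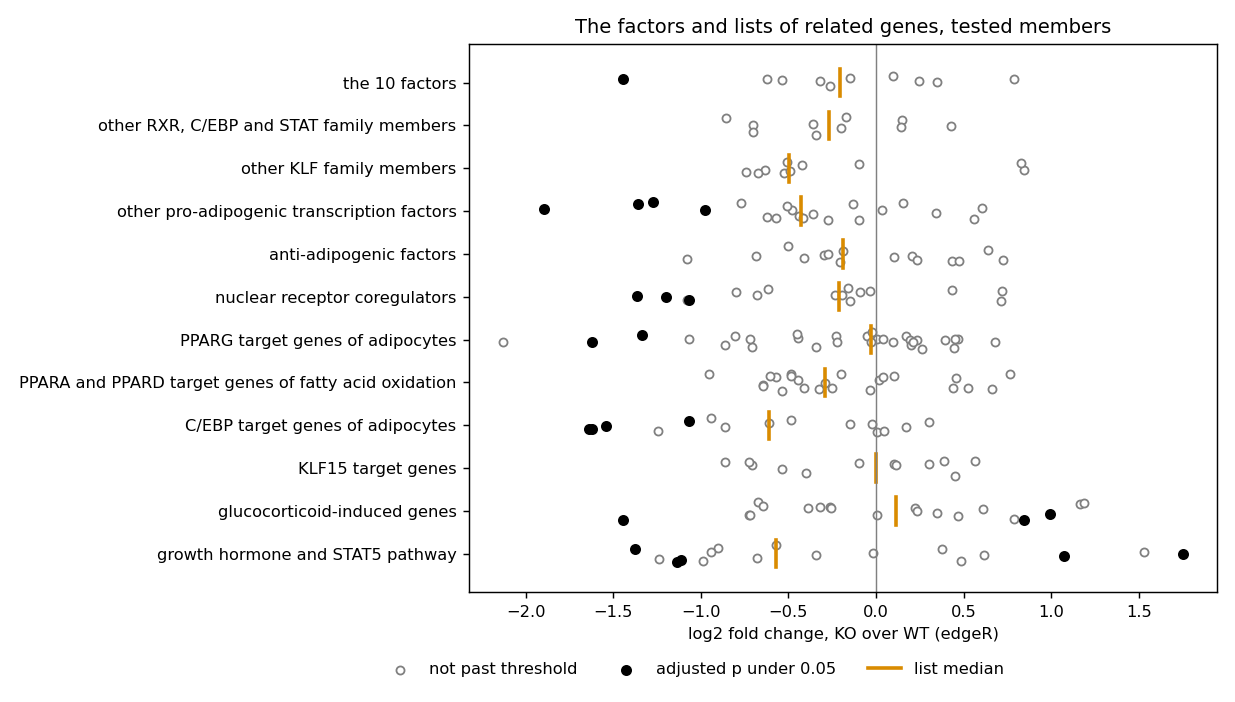
Log2 fold change of KO over WT (edgeR) for each tested gene of the 10 factors and of 11 lists of related genes, 1 row per list, with filled points for genes past an adjusted p of 0.05, open points for the rest and an orange line at each list's median. Filled points are few, most lie left of 0, and those right of 0 stand in the glucocorticoid-induced and the growth hormone and STAT5 rows.

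Genes whose profile over the 6 libraries lay closest to that of a factor were ranked by the root mean square difference of centred log2 CPM. Nearest to Pparg among 7929 genes were Sgce (0.0324), Cfdp1 (0.0490) and Pitpnb (0.0517), against a median of 0.412 over those genes, and each had a log2 fold change between -0.18 and -0.12. Nearest to Zbtb16 were Ogfrl1 (0.101), Topors (0.127) and Tlk1 (0.140), against a median of 0.833. Ogfrl1 had 3.71, 4.35 and 4.799 CPM in the KO libraries, against 11.00, 8.19 and 13.4 CPM in the WT libraries, and like Topors and Tlk1 it fell (log2 fold change -1.34, -1.40 and -1.26). Nearness over 6 libraries describes only the shape of the values.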

How the data were processed

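RNA-seq read counts per Ensembl gene were analysed in 6 libraries, each from a pool of 3 mice. The authors deposited whole-number counts, not normalized. Reads were aligned with STAR 2.5.4b to mm9, per the submitters' processing notes; not given in the sources used here were the counting tool, its annotation release, its strand setting and how multi-mapped reads were handled. Of 37620 identifiers, 32897 matched a symbol and a transcript length in the GENCODE annotation. No 2 libraries held identical values.

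Genes were kept with edgeR's filter (minimum count 10, minimum total 15) and tested with its quasi-likelihood test (edgeR 4.0.16, R 4.3.3, TMM scaling, Benjamini-Hochberg adjustment over all tested genes, threshold 0.05). DESeq2 1.42.0 and limma-voom 3.58.1 were alternatives. Offsets for transcript length and GC content came from a smooth fit per library (mgcv 1.9.3, basis size 6, prior count 2). CPM used TMM-scaled library sizes, and intervals cover 95%. Within-library ratios were compared by exact permutation. The procedure was also run on simulated counts with the same dispersion for every gene and no length or GC trend. That run therefore says nothing about calls under the trend seen here.

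The 10 factors and the lists were chosen with earlier results of these data known. From each list up to 4 genes with the smallest p were named, and any other is said to be named after its value was seen; Ucp1, Stat5b, Rxrb, Nr3c1 and Phospho1 were fixed as context. Some genes that this rule names are not reported here. Profiles were compared over genes with a mean of at least 5 CPM.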

Additional observations from a re-analysis of the deposited data

How the results depend on the processing

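Over the 19 alternatives tried, Zbtb16 was lower in KO in all 19 and passed the threshold in 12, with log2 fold changes from -1.69 to -1.16 and adjusted p from 0.00142 to 0.125. Over all genes, 197 were called higher and 908 lower. The counts were 29 higher and 1389 lower with total counts as the scaling, with an all-gene median of -0.23; 478 higher and 1341 lower with DESeq2; 1 higher and 0 lower with offsets from the longest transcript (2786 at an unadjusted p under 0.05); 81 higher and 142 lower with offsets from the median transcript; and 1 higher and 0 lower at an adjusted p of 0.01. Leaving out 1 library gave 0 to 688 higher and 0 to 1383 lower. Of the 10 factors, DESeq2 called 2, both offset fits 0, the 0.01 threshold 0, and fits without 1 library 0 to 2. The labels do not say whether replicate numbers pair the samples. The correlations of same-numbered libraries, on deviations from the group means, were 0.145, -0.534 and 0.032, which does not settle it. With the replicate number as a block, 223 genes were higher and 976 lower, and with the block and offsets 0 and 0 in edgeR (2475 at an unadjusted p under 0.05), with 0 of the 10 factors called.

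Directions turned as follows; the cause was not tested. The log2 ratio of Stat5a to Stat5b was -0.26 with offsets and -0.20 to 0.29 without 1 library. Ppard was at -0.030 with total counts and -0.21 to 0.64 without 1 library. Cebpa was at -0.16 with total counts, -0.24 and -0.090 with offsets from the longest and median transcript, -0.25 with block and offsets, and -0.091 to 0.27 without 1 library. Stat5a was at -0.48 to 0.0029 without 1 library. With offsets from the median transcript Stat5b was at 0.083 and Rxrb at -0.015, and with the longest Igf1 was at 0.050. Ppard had 9 to 38 counts a library, which limits its precision.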
